A study of Mus musculus with 11 samples.

Results

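Genes of the splicing machinery and of the RNA-binding proteins that steer it were followed through cultured mouse oligodendrocyte lineage cells. They were chosen by symbol: every gene named as an hnRNP (Hnrnp), an SR protein (Srsf with a number), an SF3A or SF3B subunit, an snRNP protein (Snrp), a CELF, ELAV-like, muscleblind, KHDRBS or RBFOX protein, or quaking (Qk). The rule used no measured value. It took 67 genes with 212 probe sets that name 1 gene, out of 18193 genes and 34958 such probe sets on the array. Another 16 probe sets named a gene of these families beside a second gene and were not used.

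RNA was measured on 11 Affymetrix mouse expression arrays in 3 groups. CKO oligodendrocytes (n = 3) carried MRF fl/fl and Olig2 wt/cre, so that both copies of Myrf, the myelin gene regulatory factor labelled MRF, could be removed by a Cre recombinase expressed from the Olig2 locus, which is active across the lineage and not in oligodendrocytes alone. Control oligodendrocytes (n = 4) came from littermates with MRF wt/fl and the same Olig2 wt/cre, so they carried Cre and 1 floxed copy. Both grew for 4 days in T3, a thyroid hormone, at 40 ng/ml with the mitogen PDGF-AA left out, which lets progenitors differentiate. Oligodendrocyte progenitor cells, OPCs (n = 4), were kept for 6 days in PDGF-AA at 10 ng/ml; the labels call them control and give no genotype. All cells came from brains at postnatal day 7; plates coated with BSL1, a lectin, took away microglia, anti-PDGFRα plates then picked out progenitors, and the medium held 2% B-27. Whether replicates are separate cultures or animals is not in the labels; p-values therefore measure only how much these arrays vary, which may be technical.

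Splicing removes introns on the spliceosome. Its snRNP particles carry a ring of Sm proteins, encoded by Snrp genes, and the SF3A and SF3B subunits belong to the U2 snRNP that recognises the branch point. SR proteins mostly bind exonic enhancers and promote the use of an exon, while hnRNPs coat nascent transcripts and often repress it. CELF, ELAV-like, muscleblind, KHDRBS and RBFOX proteins and quaking are regulators whose levels differ between tissues. Quaking binds myelin transcripts such as that of Mbp, and mice that lack it in oligodendrocytes fail to myelinate.

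Values are MAS 5.0 signals, a linear measure of brightness per probe set that the authors scaled to the same mean on every array, so a difference is relative to the rest of the transcripts on that array. Differences are on the scale of log2(signal + 16), with the tested culture minus the other, and come from limma with p-values adjusted over all 10069 genes tested and a threshold of 0.05. Where a gene had several probe sets, the one with the highest mean over the 11 arrays stands for it. Within these bulk cultures, fewer cells of a type and less RNA per cell cannot be told apart.

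The targeted gene checked the labels first. Myrf has 1 probe set, and whether it lies within the deleted stretch is not known here. It gave signals of 2849, 1904 and 2223 on the CKO arrays, while the 4 control arrays spanned 6215 to 7517. The difference was -1.58 ± 0.57 (SE) with an adjusted p of 0.127 in limma, without overlap. The fit takes 1 spread per gene from all 3 groups, OPC arrays included. For Myrf the SD was 480 in CKO, 620 in control and 2952 in OPC cultures, so this p-value does not measure the spread of CKO and control arrays alone. On OPC arrays 1 to 4 it gave 752, 6848, 1135 and 970.5, so OPC 2 stood at the level of control oligodendrocytes, against its label. The summed signal of oligodendrocyte markers was likewise 75894 on OPC 2, above the 18906 to 52249 of the other OPC arrays, and that of dividing-cell markers was lowest there, at 28371 in a range up to 128385. OPC 1 and OPC 4 stood apart in another way. The ratio of 5′ to 3′ signal of Gapdh, a sign of RNA or labelling quality, was 0.332 and 0.12 there, against 1.15 to 1.41 on all other arrays. The control probe sets Dap and Thr gave low ratios there too. Dap was at 0.0533 and 0.0227, against 0.25 to 0.611 elsewhere, and Thr at 0.0691 and 0.0654, against 0.187 to 0.439. Which step these ratios reflect was not tested. Results against OPCs are therefore also given without OPC 2 and without OPC 1 and 4. Pairwise correlations across genes within a group ranged from 0.844 to 0.977.

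Markers of other cells moved with the groups as well. Summed marker signals of oligodendrocytes, led by Cnp and Mbp, were 58657 to 71608 in CKO, 110378 to 137705 in control and 18906 to 75894 in OPC cultures. Those of progenitors, led by Gpr17 and Ptprz1, were 32248 to 33202 in CKO, 16282 to 24238 in control and 42587 to 51485 in OPC cultures, without overlap. Those of astrocytes, led by Gfap and Aldoc, were 100962 to 109309 in CKO, 66556 to 90447 in control and 9209 to 12424 in OPC cultures. Those of dividing cells, led by Pcna and Rrm2, were 7369 to 9022 in CKO, 11090 to 24633 in control and 28371 to 128385 in OPC cultures. Markers of neurons, led by Map2 and Gap43, summed to 8429 to 10395 in CKO, 8215 to 9143 in control and 12053 to 21836 in OPC cultures, and the neuronal genes Slc17a7 and Dlx1 lay under a signal of 100 throughout. Those of pericytes and fibroblasts, led by Tagln and Acta2, were 4794 to 8361 in CKO, 1028 to 2967 in control and 346 to 586 in OPC cultures. Only 3 of these 11 markers passed the filter on dim probe sets, Tagln, Myl9 and Acta2. Vtn, Col1a1, Pdgfrb and Lum lay under a signal of 100 throughout, so the sum does not stand for the whole list. No marker of microglia or endothelium passed the filter on dim probe sets. The part of these cell types in the results was not tested.

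Of the 67 genes, 58 had a probe set at 200 or more on 3 arrays or more and were tested, with 164 passing probe sets. All 19 hnRNP genes and all 9 SF3A and SF3B genes were among them, with 9 of 10 SR, 8 of 9 snRNP, 4 of 6 CELF, all 4 ELAV-like, 2 of 3 muscleblind and 3 of 4 STAR genes, the last being Khdrbs1, Khdrbs3 and Qk. None of the 3 RBFOX genes passed. The highest signal of a probe set of Rbfox2 was 827 on OPC 2, against at most 197 on a CKO array and 195.4 on a control array. The highest of Rbfox1 and of Rbfox3 were 221 and 335, both on OPC 4, and Khdrbs2 reached 359 and Srsf12 267 on OPC 2. Celf3 reached 234 on CKO 2, and Celf6, Mbnl3 and Snrpn stayed at or under 165 on all arrays. Celf4 passed through 3 OPC arrays alone, and Elavl4 reached 200 on 4 OPC, 2 control and no CKO arrays, so both had to be higher in OPCs to be measured. Both are included below in the counts of genes lower than in OPCs.

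**Figure D1:**
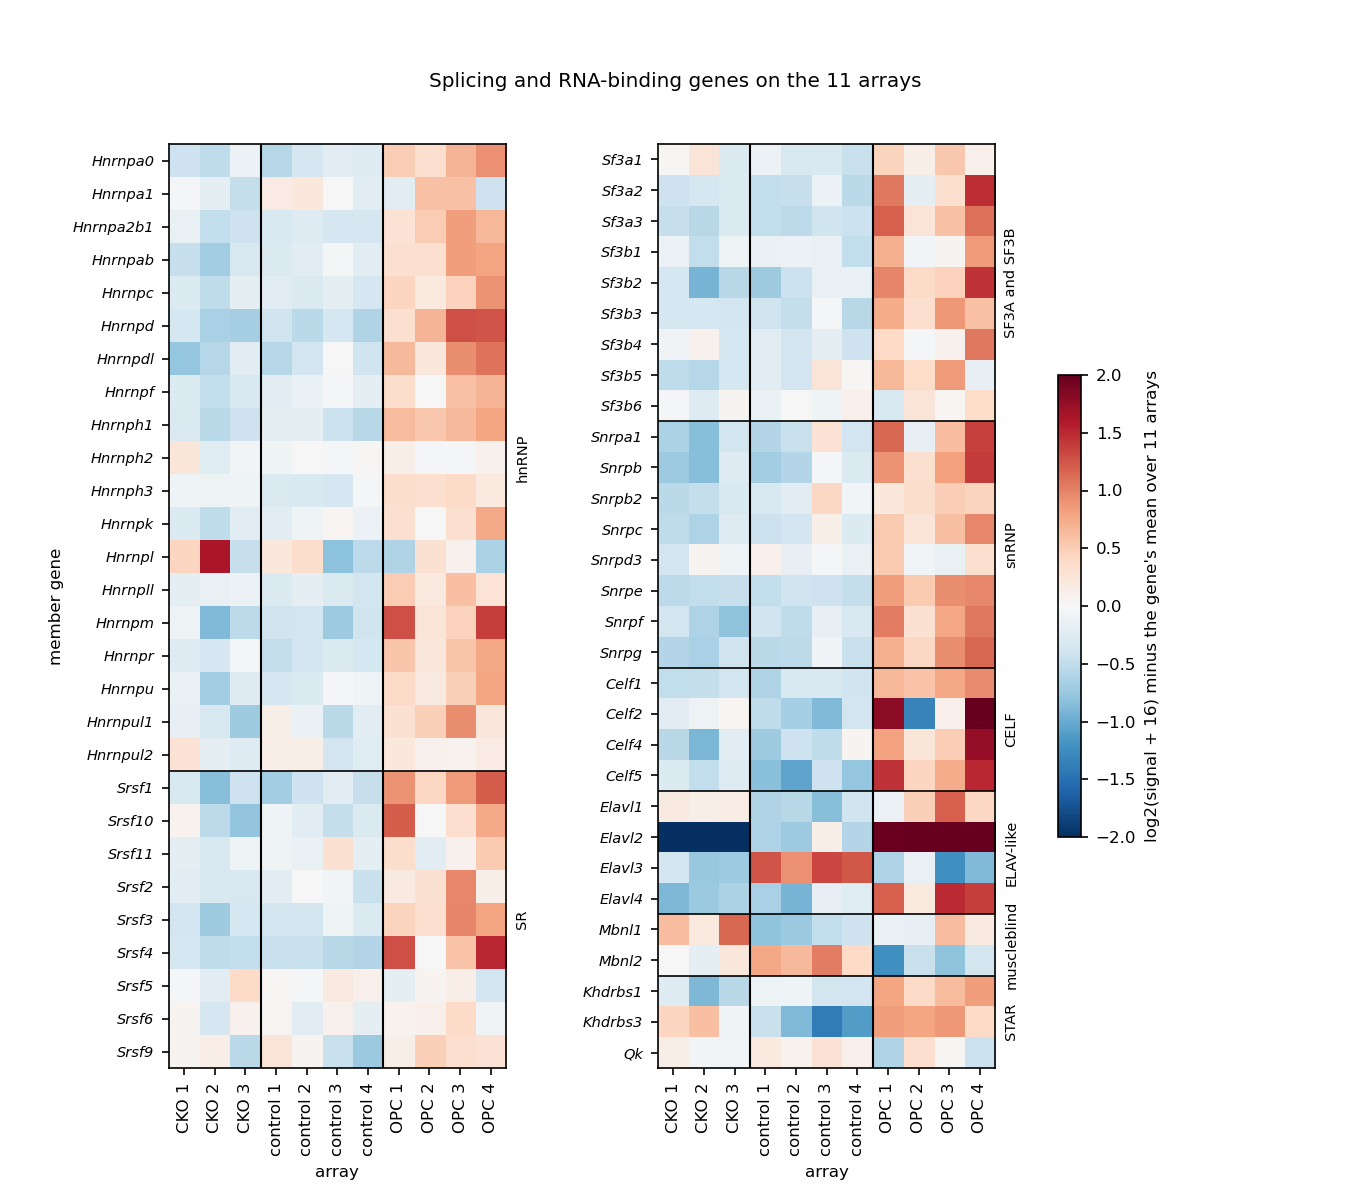
The log2(signal + 16) of each of the 58 measured genes (vertical axis, by family) on each of the 11 arrays (horizontal axis), minus that gene's mean over the 11 arrays. Colours end at 2 and -2, beyond which Elavl2 lies on the CKO arrays and on OPC 2, 3 and 4, and Celf2 on OPC 4. Most hnRNP, SR, SF3 and snRNP rows are red on the OPC arrays and pale blue on CKO and control arrays alike. Elavl2, Elavl3, Mbnl1 and Khdrbs3 separate CKO from control.

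CKO and control oligodendrocytes were compared to find what changes when Myrf is deleted in cells placed under differentiation conditions. A handful of tissue regulators differed and the general machinery did not pass the test. Of the 58 genes, 2 rose in CKO cultures, Khdrbs3 and Mbnl1, and 2 fell, Elavl3 and Elavl2. Among all 10069 genes 3.64% rose and 3.88% fell, 7.53% in either direction, so the 6.9% called here lies near the background. CKO and control arrays did not overlap for 12 genes (20.7%), 5 higher and 7 lower, where 31.6% of all genes did not overlap, 17.4% higher and 14.2% lower. The median difference was -0.08 over the 58 genes and 0.03 over all genes.

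Elavl3 encodes HuC, an ELAV-like protein known from neurons, where it binds U-rich stretches of transcripts and affects their splicing and stability. Elavl3 (Entrez 15571) gave signals of 1605, 1218 and 1245 on CKO arrays, 4970.3, 3941, 5234 and 4902 on control arrays, and 1341, 1864, 876 and 1121 on OPC arrays. On the brightest probe set, given here, every CKO array lay below every control array and within the OPC range. The difference between CKO and control was -1.80 ± 0.23 (SE) on the log2 scale, 3.49-fold lower in CKO, with an adjusted p of 0.000618 in limma. All 3 probe sets of the gene were lower in CKO, by -1.80, -1.68 and -1.75 with adjusted p-values of 0.000985, 0.0305 and 0.0137 over probe sets. The neuronal markers gave overlapping sums in CKO and control cultures, as listed above. Of the 9 that were measured, 1 passed as lower in CKO, Nefm at -1.95, and none as higher. By sign 6 were negative and 3 positive, with a median of -0.38. Their part in this result was not tested.

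Elavl2 encodes HuB, the relative of HuC that is also found in germ cells. Elavl2 (Entrez 15569) gave 61.3, 62.5 and 58.9 on CKO arrays, 225, 208, 385 and 229 on control arrays, and 1436, 1556, 1941 and 1572 on OPC arrays. The 3 groups did not overlap, and the CKO arrays all lay under a signal of 100, where array values carry little information. Set against a floor of 100, Elavl2 was at least 2.33-fold lower in CKO than in control cultures. The fitted difference was -1.81 ± 0.22 with an adjusted p of 0.000383. Of the 3 probe sets that passed, 2 fell with differences of -1.81 and -1.97, and the other differed by -1.25 with an adjusted p of 0.0617 over probe sets.

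Khdrbs3 encodes T-STAR (SLM2), which in mouse brain controls exons of neurexin transcripts. Khdrbs3 (Entrez 13992) gave 1352, 1532 and 951 on CKO arrays, 726, 535, 371 and 451 on control arrays, and 1792, 1739.8, 1837 and 1327 on OPC arrays. The lowest CKO array was above the highest control array, and CKO and OPC arrays overlapped. The difference between CKO and control was 1.28 ± 0.24, 2.44-fold higher in CKO, with an adjusted p of 0.00657. A single probe set represents this gene. The summed progenitor markers ran in the same order over the groups, OPC above CKO above control. The single markers did not all follow it. Of the 7, 4 had a positive and 3 a negative difference between CKO and OPC. Between CKO and control 6 were positive and 1 negative, Pdgfra at -0.75. The part of these markers in this result was not tested.

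Mbnl1 encodes muscleblind-like 1, a splicing regulator best known for being trapped by the repeat transcripts of myotonic dystrophy. Mbnl1 (Entrez 56758) gave 4912, 3664 and 7103 on CKO arrays, 1818, 1897, 2276 and 2381 on control arrays, and 2901, 2847, 4905 and 3637 on OPC arrays. All CKO arrays were above all control arrays, with a wide spread among them. Summed markers of progenitors, of astrocytes and of pericytes and fibroblasts were likewise higher in CKO than in control cultures. Of the last list only 3 of 11 markers passed the filter. The part of these 3 lists was not tested. The difference was 1.27 ± 0.25, 2.41-fold higher in CKO, with an adjusted p of 0.00758, and it rests on the 1 probe set of 3 that passed the filter. The 4 calls were kept under all 21 other settings of the analysis, with adjusted p-values for Khdrbs3 and Mbnl1 of up to 0.0462 and 0.0445.

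**Figure D2:**
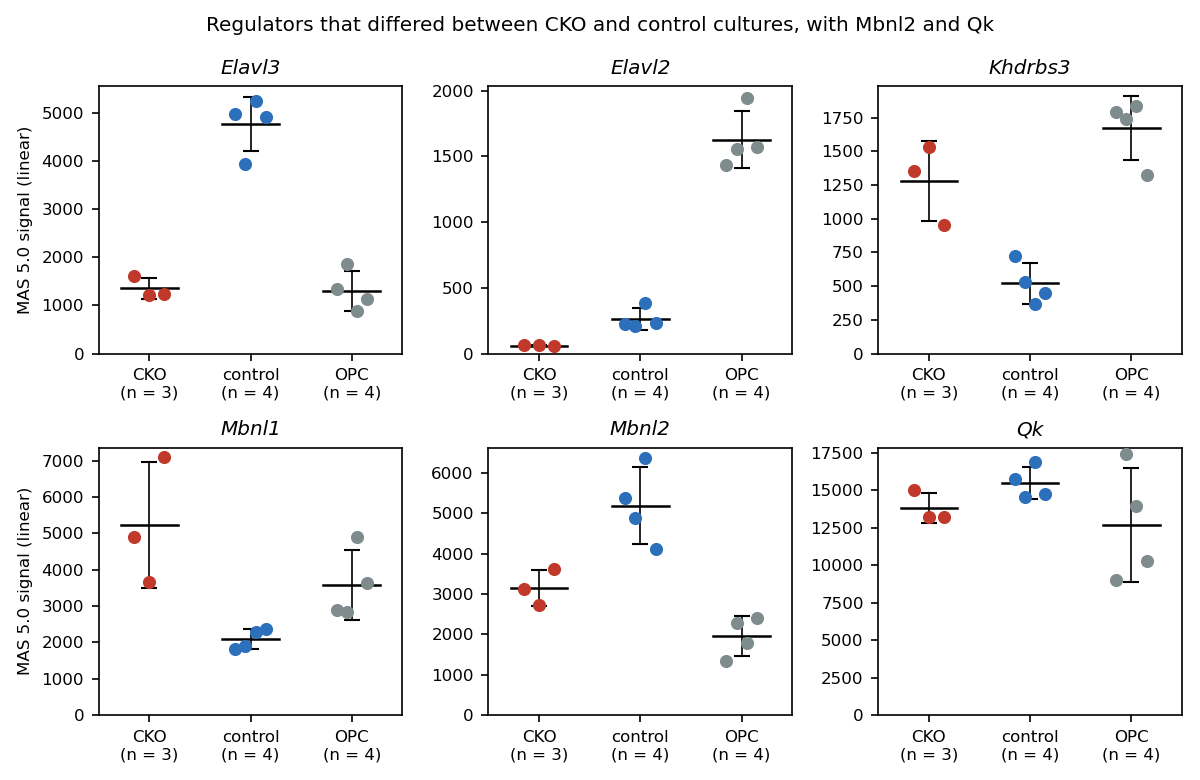
MAS 5.0 signal (linear vertical axes from 0) of 6 regulators on each array of CKO, control and OPC cultures; points are arrays, long bars the mean and whiskers 1 SD (n = 3, 4 and 4). Each gene is drawn by its brightest probe set. On it Elavl3 is high in control cultures alone, and Elavl2 is stepped from CKO to control to OPC. Khdrbs3 and Mbnl1 are lowest in control, and the Qk arrays overlap.

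Of the regulators that did not pass, Mbnl2 and Elavl1 came closest. Mbnl2, the muscleblind gene prominent in brain (Entrez 105559), gave 3119.8, 2729 and 3607 on CKO arrays, 5376, 4887, 6376 and 4116 on control arrays, and 1329, 2283, 1776 and 2412 on OPC arrays. CKO arrays lay between the other groups without overlap. The difference between CKO and control was -0.71 ± 0.22 with an adjusted p of 0.0814. With replicate number as a block it was -0.81 with an adjusted p of 0.005, and over all settings the adjusted p ranged from 0.005 to 0.351. Mbnl2 was called lower in 6 of the 21 other settings. These were the block, only the 2 groups compared, array weights, and fits without OPC 1 and 4, without OPC 1 and without OPC 2. Elavl1, the widely expressed HuR, averaged 1556 ± 28.7 in CKO, 924 ± 119 in control and 2081 ± 815 in OPC cultures (SD). Its difference of 0.75 ± 0.25 had an adjusted p of 0.103, and 0.0119 with the replicate block, where it was 0.82. Elavl1 was called higher in 5 of the 21 other settings. These were the block, only the 2 groups compared, array weights, and fits without OPC 1 and 4 and without OPC 3. The difference was -0.047 when the probe set brightest in oligodendrocytes stood for the gene, a choice made after seeing the data. Over all settings its adjusted p ranged from 0.00671 to 0.953.

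Quaking did not pass. Qk (Entrez 19317) gave 14999, 13242 and 13246 on CKO arrays, 15788, 14541, 16918 and 14795 on control arrays, and 9045, 17439, 13955 and 10258 on OPC arrays. CKO and control arrays overlapped, and the OPC arrays spanned both. The difference between CKO and control was -0.17 ± 0.19 with an adjusted p of 0.683. The CELF genes, Elavl4 and Khdrbs1 (Sam68) did not pass either. Their differences between CKO and control lay between -0.33 for Khdrbs1 and 0.51 for Celf2. CKO arrays of Celf2 nonetheless lay above all control arrays, at 1275 to 1551.5 against 810.5 to 1168. Its adjusted p of 0.709 in limma rests on a spread shared with the OPC arrays, where the SD was 2922, against 138 in CKO and 154 in control cultures.

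None of the 45 measured hnRNP, SR, SF3 and snRNP genes passed in limma, and 1 had an unadjusted p under 0.05, Snrpb2 at -0.41 (adjusted p 0.22). The differences ran from -0.41 for Snrpb2 to 0.73 for Hnrnpl, with a median of -0.07. Hnrnpl averaged 1232 ± 885 in CKO and 653 ± 248 in control cultures (SD). All 8 measured snRNP genes had a negative difference, between -0.41 and -0.04, none of which passed.

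To set the letters beside these results, the 250 bases before the annotated start of 3 of the called genes are shown, from the RefSeq promoter table of build GRCm38.p6, which held 58 of the 67 genes and not Khdrbs3. Capitals mark CCAAT, the CCAAT box. None of the windows holds CTGGNAC, a loose form of the element that the Myrf protein binds, on either strand.
Elavl3 (chr9:22052024-22052273, minus strand): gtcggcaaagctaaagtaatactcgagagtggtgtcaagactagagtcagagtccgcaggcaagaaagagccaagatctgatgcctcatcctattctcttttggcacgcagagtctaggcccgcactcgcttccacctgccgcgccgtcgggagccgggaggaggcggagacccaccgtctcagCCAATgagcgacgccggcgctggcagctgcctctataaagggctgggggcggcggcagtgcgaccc
Elavl2 (chr4:91399985-91400234, minus strand): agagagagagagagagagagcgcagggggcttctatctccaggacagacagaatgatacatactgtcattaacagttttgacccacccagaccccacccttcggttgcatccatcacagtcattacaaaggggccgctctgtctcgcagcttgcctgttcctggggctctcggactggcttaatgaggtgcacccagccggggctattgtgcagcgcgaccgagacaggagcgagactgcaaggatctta
Mbnl1 (chr3:60472580-60472829, plus strand): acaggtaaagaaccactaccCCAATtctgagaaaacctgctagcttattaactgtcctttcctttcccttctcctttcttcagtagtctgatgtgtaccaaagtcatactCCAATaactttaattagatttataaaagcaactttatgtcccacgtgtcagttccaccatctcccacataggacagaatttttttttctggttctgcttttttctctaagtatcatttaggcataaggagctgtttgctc

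The 3 windows differ in composition, with a GC content of 61.6% for Elavl3, 55.6% for Elavl2 and 38% for Mbnl1. Elavl3 has 1 CCAAT match, 66 bases before the start, Elavl2 none and Mbnl1 2 matches. CTGGNAC, counted on both strands, was in 3 of the 58 member promoters (5.17%), in 14.8% of the 8240 promoters of genes that passed the filter and in 15.9% of all 27018. A match is a description and not a bound site, and its absence says only that these letters are not in this window.

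Control oligodendrocytes were compared with OPCs to follow the genes through differentiation, and CKO oligodendrocytes with the same OPC arrays to see the levels reached without Myrf. In both comparisons most of the splicing machinery was lower in the differentiating culture. In control oligodendrocytes 42 of the 58 genes were lower than in OPCs and 2 higher, Elavl3 and Mbnl2, where 29.6% of all genes were lower and 24.4% higher, 54% in all. In CKO oligodendrocytes 39 were lower and 1 higher, Mbnl2, where 26.8% of all genes were lower and 23.8% higher, 50.6% in all. The comparisons share the 4 OPC arrays, so their likeness is no independent evidence. The median difference over the 58 genes was -0.83 in control and -0.85 in CKO oligodendrocytes, and over all genes -0.09 and -0.05. Control and OPC arrays did not overlap for 41 genes, 39 lower and 2 higher in control oligodendrocytes, where 43.8% of all genes did not overlap, 23.7% lower and 20.1% higher. CKO and OPC arrays did not overlap for 39 genes, 38 lower and 1 higher in CKO oligodendrocytes, where 49.9% of all genes did not, 26.4% lower and 23.5% higher.

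Without OPC 2 the counts were 43 lower and 3 higher in control oligodendrocytes, where 32.9% of all genes were lower and 27.9% higher, and 42 lower and 1 higher in CKO oligodendrocytes, where 30.6% were lower and 28.2% higher. Without OPC 1 and 4 they were 36 lower and 2 higher in control oligodendrocytes, where 22.7% of all genes were lower and 19.9% higher, and 37 lower and 1 higher in CKO oligodendrocytes, where 21.4% were lower and 20.1% higher. OPC 2 was the lowest OPC array for 35 of the 58 genes (60.3%), against 34.7% of all genes. Even so, OPC 2 was above all control arrays for 45 of the 58 genes, beside 48, 48 and 50 for OPC 1, 3 and 4. Of all genes, 39.8% were above all control arrays on OPC 2, and 45.1%, 42.1% and 43.4% on OPC 1, 3 and 4. The median of the 58 genes above the control mean was 0.76, 0.52, 0.89 and 1.04 on OPC arrays 1 to 4, which orders OPC 2 lowest, as it is in dividing-cell markers; the part of either was not tested.

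**Figure D3:**
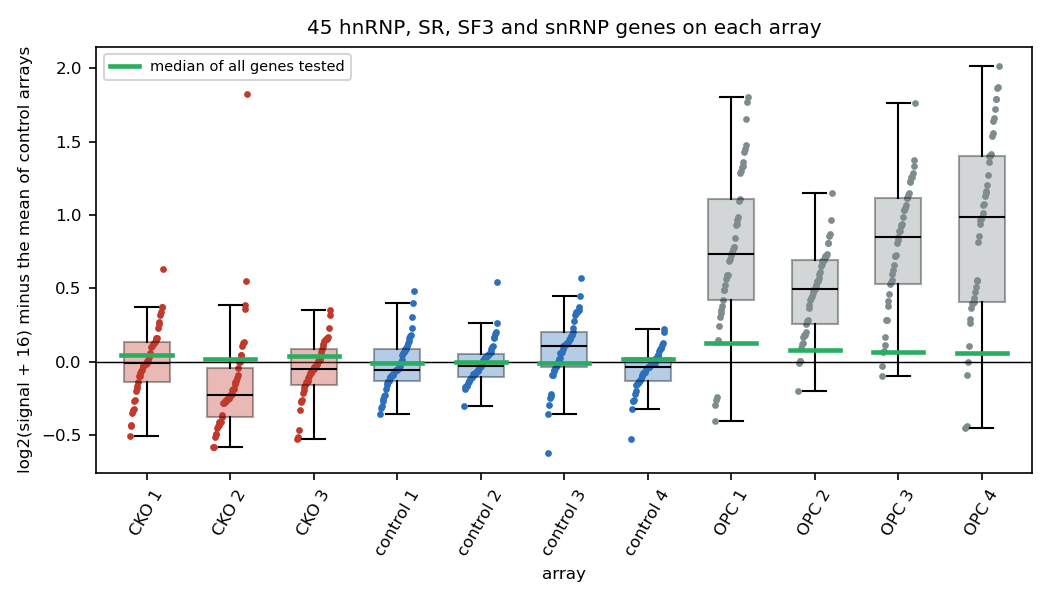
The log2(signal + 16) of the 45 hnRNP, SR, SF3 and snRNP genes on each array, minus the mean of the control arrays for the same gene (vertical axis); points are genes, boxes span the middle quartiles with the median as a line and whiskers reach the last gene within 1.5 box lengths, and green bars are the median of all genes tested. The CKO arrays sit about the control arrays, and the boxes of all 4 OPC arrays lie above the green bars, lowest for OPC 2.

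Of all genes 29.6% were lower than in OPCs in control and 26.8% in CKO oligodendrocytes, shares to set beside each family count below. Among the hnRNPs, 15 of 19 genes were lower than in OPCs in control and 15 in CKO oligodendrocytes, with median differences of -0.68 and -0.82. Hnrnpd encodes AUF1, which binds AU-rich elements and destabilises transcripts, and fell the most of them in both cultures. Hnrnpd (Entrez 11991) gave 3146, 2543 and 2533 on CKO arrays, 3054, 2749.9, 3148 and 2648 on control arrays, and 4997, 6443, 9834 and 9586 on OPC arrays. Every OPC array lay above every oligodendrocyte array, with OPC 1 nearest to them. The difference from OPCs was -1.44 ± 0.22 in CKO (adjusted p 0.000329) and -1.35 ± 0.21 in control oligodendrocytes (adjusted p 0.000287). Hnrnpl alone had a positive difference from OPCs, 0.74 in CKO and 0.01 in control oligodendrocytes, and neither passed.

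Of the SR proteins, 5 of 9 genes were lower in each kind of oligodendrocyte than in OPCs, and none was higher. Srsf4 encodes SRp75, an SR protein that acts on exonic enhancers. Srsf4 (Entrez 57317) gave 1769, 1579 and 1594 on CKO arrays, 1644, 1650.1, 1521 and 1500.5 on control arrays, and 5547.5, 2268, 3332 and 6414 on OPC arrays. The oligodendrocyte arrays were close together, and OPC 2 was the OPC array nearest to them. Against OPCs the difference was -1.29 ± 0.29 in CKO (adjusted p 0.00341) and -1.35 ± 0.27 in control oligodendrocytes (adjusted p 0.00154). At the other end Srsf5 differed by 0.14 and 0.15, which did not pass.

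Of the SF3A and SF3B subunits, 6 of 9 were lower in CKO and 7 of 9 in control oligodendrocytes than in OPCs, with medians of -0.90 and -0.68. Sf3b2 encodes a subunit that helps seat the U2 snRNP at the branch point. Sf3b2 (Entrez 319322) gave 2779, 1850.4 and 2392 on CKO arrays, 2159, 2635, 3183 and 3241 on control arrays, and 6966, 4608, 4855 and 9618 on OPC arrays. All OPC arrays were above all oligodendrocyte arrays, OPC 4 by most. The difference from OPCs was -1.42 ± 0.26 in CKO (adjusted p 0.00097) and -1.16 ± 0.24 in control oligodendrocytes (adjusted p 0.00195). With the mean of its 5 passing probe sets it was -0.057 (adjusted p 0.84) and -0.23 (adjusted p 0.343), and both calls were lost. Of those probe sets 2 were lower than in OPCs and 3 did not pass, and over all settings the adjusted p ran from 8.17e-05 to 0.84 in CKO and from 9.44e-05 to 0.343 in control oligodendrocytes.

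The snRNP proteins had the family median farthest below 0 among the general machinery, -1.32 in CKO and -1.08 in control oligodendrocytes, with 7 and 6 of 8 genes lower than in OPCs. Snrpb encodes the Sm proteins B and B′ of the snRNP core ring. Snrpb (Entrez 20638) gave 3050.4, 2799 and 4249.9 on CKO arrays, 3107, 3374, 4979 and 4146 on control arrays, and 9481, 6304, 8995 and 13315 on OPC arrays. OPC 2 was the lowest OPC array and still above every oligodendrocyte array. Set against OPCs, Snrpb differed by -1.47 ± 0.25 in CKO (adjusted p 0.00062) and -1.26 ± 0.23 in control oligodendrocytes (adjusted p 0.000966). By the brightest probe sets Snrpd3 was the member that differed least, by -0.30 and -0.22, neither past the threshold. Of its 3 passing probe sets, 1 was called higher than in OPCs in each comparison and none lower. Their differences reached 0.55 in CKO and 0.73 in control oligodendrocytes.

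**Figure D4:**
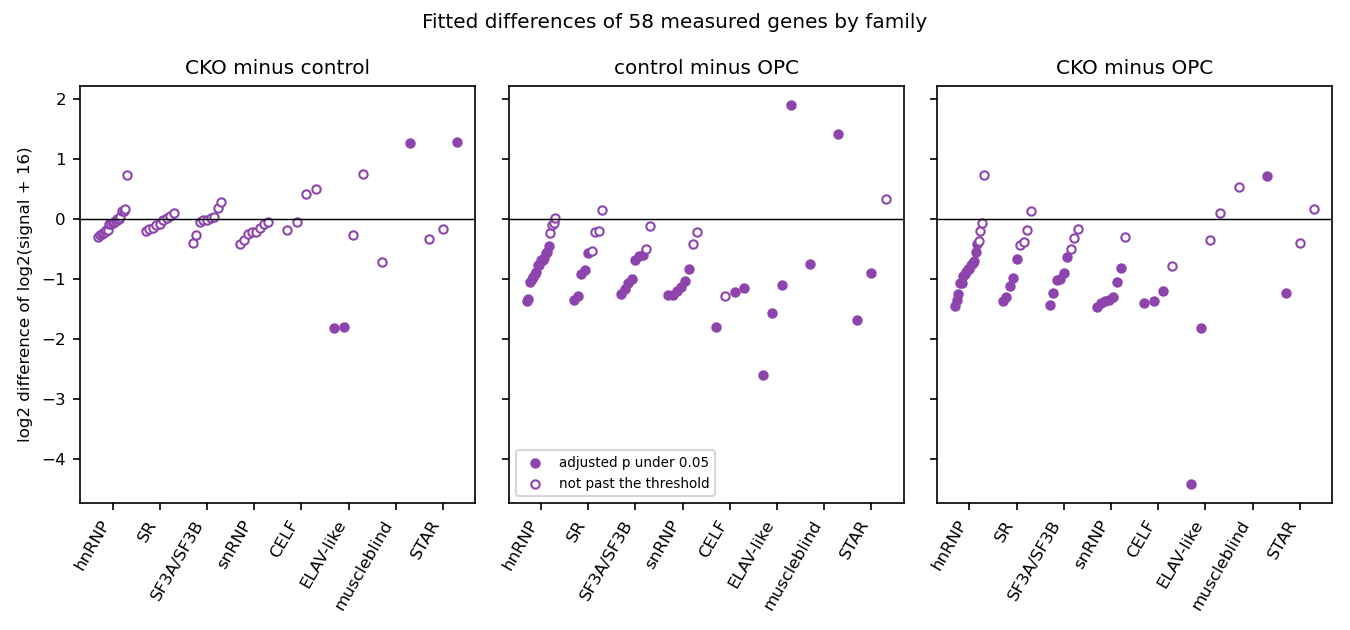
Difference in log2(signal + 16) of each measured gene (points) by family, for CKO minus control, control minus OPC and CKO minus OPC; filled points passed an adjusted p of 0.05. The first panel holds 4 filled points, all among the regulators, and the other panels hold 42 and 39 filled points below 0.

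The hnRNP, SR, SF3 and snRNP promoters were read for elements common in housekeeping genes, and that of Hnrnpd is printed because Hnrnpd fell the most against OPCs among the members that hold such an element. Capitals mark CTTCCGG, the reverse of the CCGGAAG core that Ets factors bind, found 178 bases before the start.
Hnrnpd (chr5:99978939-99979188, minus strand): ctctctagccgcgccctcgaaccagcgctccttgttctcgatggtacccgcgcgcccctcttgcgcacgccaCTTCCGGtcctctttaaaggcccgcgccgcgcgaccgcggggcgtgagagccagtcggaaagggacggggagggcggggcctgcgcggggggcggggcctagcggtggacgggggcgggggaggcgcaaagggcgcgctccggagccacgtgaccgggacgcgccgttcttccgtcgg

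CTTCCGG, on either strand, was in 14 of the 58 member promoters (24.1%), in 15.1% of those of genes that passed the filter and in 7.07% of all. All 14 belong to the hnRNP, SR, SF3 and snRNP genes and were measured. Of the 14, 10 (71.4%) were lower in control oligodendrocytes than in OPCs, close to the 72.4% of the 58 measured members. Those 58 are not the same set as the 58 members with a promoter sequence. CCAAT was in 46.6% of member promoters, 37.2% of those that passed and 34.5% of all, and TTTCCCGC, an E2F element, in 5.17%, 1.95% and 0.929%. Matches of different motifs were counted separately even where they overlap. The median GC content was 60.4% in member promoters, 60.8% in those that passed and 52% in all. These are descriptions of the windows.

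The regulators moved less uniformly against OPCs. Of the 4 measured CELF genes 3 were lower in each kind of oligodendrocyte. Celf5, a CELF protein enriched in brain (Entrez 319586), gave 343.5, 289.9 and 344 on CKO arrays, 225, 192, 309 and 237 on control arrays, and 1155, 567, 706 and 1207 on OPC arrays. All OPC arrays were above all others. The difference from OPCs was -1.37 ± 0.27 in CKO (adjusted p 0.00147) and -1.80 ± 0.25 in control oligodendrocytes (adjusted p 0.000144).

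Celf4, a CELF protein of neurons (Entrez 108013), gave 89.2, 65.9 and 117 on CKO arrays, 79.1, 100.1, 93.2 and 145 on control arrays, and 255, 167, 202 and 506 on OPC arrays. The oligodendrocyte arrays were dim and lay below every OPC array. Celf4 passed the filter through OPC arrays alone, so the p-values that follow are no independent test of its direction. The difference from OPCs was -1.39 ± 0.36 in CKO (adjusted p 0.00726) and -1.22 ± 0.33 in control oligodendrocytes (adjusted p 0.00919). Without OPC 1 and 4 it was -0.93 (adjusted p 0.0538) and -0.76 (adjusted p 0.0864), and neither passed. With the replicate block the CKO call was lost as well, at -1.08 (adjusted p 0.0583), and over all settings the adjusted p ran from 0.00105 to 0.0583 in CKO and from 0.00152 to 0.0864 in control oligodendrocytes. Celf1, the widely expressed CUG-binding member, averaged 5878 ± 229 in CKO, 6085 ± 567 in control and 13469 ± 1540.3 in OPC cultures. Celf2 averaged 1409 ± 138 in CKO, 993.5 ± 154 in control and 3543 ± 2922 in OPC cultures, where it ran from 584.5 on OPC 2 to 6750.4 on OPC 4. It passed in neither comparison, at -0.77 in CKO (adjusted p 0.328) and -1.28 in control oligodendrocytes (adjusted p 0.0848). Without OPC 2 Celf2 was lower in both, by -1.44 (adjusted p 0.00802) and -1.95 (adjusted p 0.000747), and without OPC 1 and 4 the differences turned to 0.52 and 0.019. It was also called in both with array weights and with the mean of probe sets, and over all settings the adjusted p ran from 0.00256 to 0.738 in CKO and from 0.000248 to 0.969 in control oligodendrocytes.

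Of the ELAV-like genes, Elavl2 and Elavl4 were lower than in OPCs in both cultures. By their brightest probe sets, Elavl1 and Elavl3 passed in control oligodendrocytes alone, in opposite directions. Elavl2, with the signals given above, differed from OPCs by -2.60 ± 0.20 in control oligodendrocytes (adjusted p 2.16e-06), 6.05-fold lower. In CKO oligodendrocytes Elavl2 was at least 14.1-fold lower than in OPCs against the floor of 100, with a fitted difference of -4.41 ± 0.22 (adjusted p 7.06e-08) that was -3.75 with a pseudocount of 64. Elavl3 went the other way in control oligodendrocytes, at 1.91 ± 0.22 above OPCs (adjusted p 3.64e-05), 3.75-fold higher, and 2.56 with the mean of its probe sets. In CKO oligodendrocytes Elavl3 differed from OPCs by 0.10 ± 0.23 (adjusted p 0.736) on its brightest probe set. Of its 3 probe sets, 2 were called higher than in OPCs there, with differences over the 3 from 0.10 to 1.37. The mean of its probe sets gave 0.82 there with an adjusted p of 0.0427, within a range of 0.0427 to 0.948 over all settings.

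Elavl4 encodes HuD, another neuronal ELAV-like protein. Elavl4 (Entrez 15572) gave 138, 154 and 169 on CKO arrays, 166, 135, 239.9 and 225 on control arrays, and 637, 311, 788 and 726 on OPC arrays. OPC 2 was the OPC array nearest the dim oligodendrocyte arrays. Elavl4 needed OPC arrays to pass the filter, so its p-values against OPCs are no independent test of its direction. The difference from OPCs was -1.82 ± 0.31 in CKO (adjusted p 0.000592) and -1.56 ± 0.29 in control oligodendrocytes (adjusted p 0.000927). Elavl1 was lower than in OPCs in control oligodendrocytes, by -1.09 ± 0.23 (adjusted p 0.00237), a call that was lost with the mean of its probe sets, where it was -0.033 (adjusted p 0.909, within a range of 0.000813 to 0.909). In CKO oligodendrocytes Elavl1 differed by -0.34 (adjusted p 0.281), and by -0.68 without OPC 1 and 4, where it passed (adjusted p 0.0327, within a range of 0.0327 to 0.799). The neuronal markers, of which 9 of 15 were measured, had higher summed signals in OPC than in oligodendrocyte cultures; 5 were lower and 1 higher than in OPCs in CKO, and 3 lower and 2 higher in control oligodendrocytes, and their part in these values was not tested.

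The muscleblind genes moved in opposite directions in control oligodendrocytes. There Mbnl2 was 2.68-fold higher than in OPCs, with a difference of 1.42 ± 0.21 (adjusted p 0.0002), and all 3 of its passing probe sets rose, by 1.42, 1.43 and 2.65. Mbnl1 was lower, by -0.74 ± 0.23 (adjusted p 0.0167). In CKO oligodendrocytes Mbnl2 was higher than in OPCs by 0.72 ± 0.22 (adjusted p 0.019), the single rise among the 58 genes. That call was lost without CKO 1, without CKO 3 and with the replicate block, where it was 0.83 with an adjusted p of 0.057, within a range of 0.00117 to 0.0767. Mbnl1 differed by 0.53 ± 0.25 in CKO oligodendrocytes (adjusted p 0.0918).

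Of the STAR proteins, Khdrbs3 was lower in control oligodendrocytes than in OPCs by -1.69 ± 0.22 (adjusted p 0.000109), and differed in CKO oligodendrocytes by -0.40 ± 0.24 (adjusted p 0.185). Khdrbs1 encodes Sam68, a target of Src kinases. It averaged 3474 ± 765 in CKO, 4307 ± 488 in control and 8078 ± 1104 in OPC cultures, and was lower than in OPCs by -1.23 in CKO (adjusted p 0.00021) and -0.90 in control oligodendrocytes (adjusted p 0.00094). Qk differed from OPCs by 0.17 ± 0.19 in CKO (adjusted p 0.48) and 0.34 ± 0.18 in control oligodendrocytes (adjusted p 0.131). Without OPC 2 Qk differed by 0.34 in CKO (adjusted p 0.0834) and was higher in control oligodendrocytes, by 0.51 (adjusted p 0.0108); without OPC 1 and 4 it differed by -0.18 and -0.011 and passed in neither. Quantile normalization and array weights called Qk higher in both, and over all settings the adjusted p ran from 0.00866 to 0.918 in CKO and from 0.00327 to 0.95 in control oligodendrocytes.

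Several genes carry more than 1 probe set, and these did not always move together, which matters for families whose transcripts are themselves spliced in several ways. Over the 164 probe sets that passed, 91 were lower and 11 higher in CKO oligodendrocytes than in OPCs, where 23.3% and 27% of all probe sets were, and 90 were lower and 11 higher in control oligodendrocytes, where 25.5% and 27.4% were. Between CKO and control, 2 rose and 5 fell, where 2.41% and 3.13% of all did. Of 42 genes with several passing probe sets, 5 had calls in both directions in CKO against OPC (Celf1, Hnrnpc, Srsf1, Srsf10 and Srsf3) and 4 in control against OPC (Hnrnpc, Qk, Srsf1 and Srsf10). These genes, and 2 genes picked for display, were chosen after their values were seen.

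Qk had 7 passing probe sets. One of them, the second brightest, gave 9641, 7997 and 9156 on CKO arrays, 9850.3, 9246, 10291 and 9733 on control arrays, and 14326, 14578, 14481 and 19099 on OPC arrays. Unlike the brightest probe set it separated every OPC array from every oligodendrocyte array, at -0.80 in CKO (adjusted p 0.000612) and -0.66 in control oligodendrocytes (adjusted p 0.00111) over probe sets. A dim one was higher in control oligodendrocytes than in OPCs by 0.90 (adjusted p 0.0223), with 353 and 448 on OPC 1 and 4 and 1088 and 681 on OPC 2 and 3. None of the 7 differed between CKO and control past the threshold. The files do not say which transcript each probe set reads.

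Srsf1, the SR protein first described as SF2/ASF, also had probe sets that disagreed. Its brightest probe set gave 7108, 4895 and 6609.9 on CKO arrays, 5442, 6649, 7623.5 and 6452 on control arrays, and 16416, 11769.7, 15899 and 20551 on OPC arrays, all OPC arrays being higher. Another of its 6 probe sets ran opposite, with 712, 2347, 2493 and 447 on OPC arrays against 2645 to 3712 on CKO arrays and 2256 to 3809 on control arrays. OPC 1 and 4, the arrays with low 5′ to 3′ ratios, were the lowest there. The same pair of arrays was low for 1 of the 5 probe sets of Hnrnpu, scaffold attachment factor A, at 1044 and 715, against 10147 and 12548 on OPC 2 and 3.

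Over the 164 probe sets, OPC 1 and 4 were both below OPC 2 and 3 for 46 (28%) and both above for 61 (37.2%). The shares were 33.4% and 26.2% over all probe sets. Among the 58 probe sets that stand for the genes, OPC 1 and 4 were both below for 9 (15.5%) and both above for 22 (37.9%), where the shares over all genes were 25.2% and 29.7%. The part of the 5′ to 3′ ratio in these orders was not tested.

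**Figure D5:**
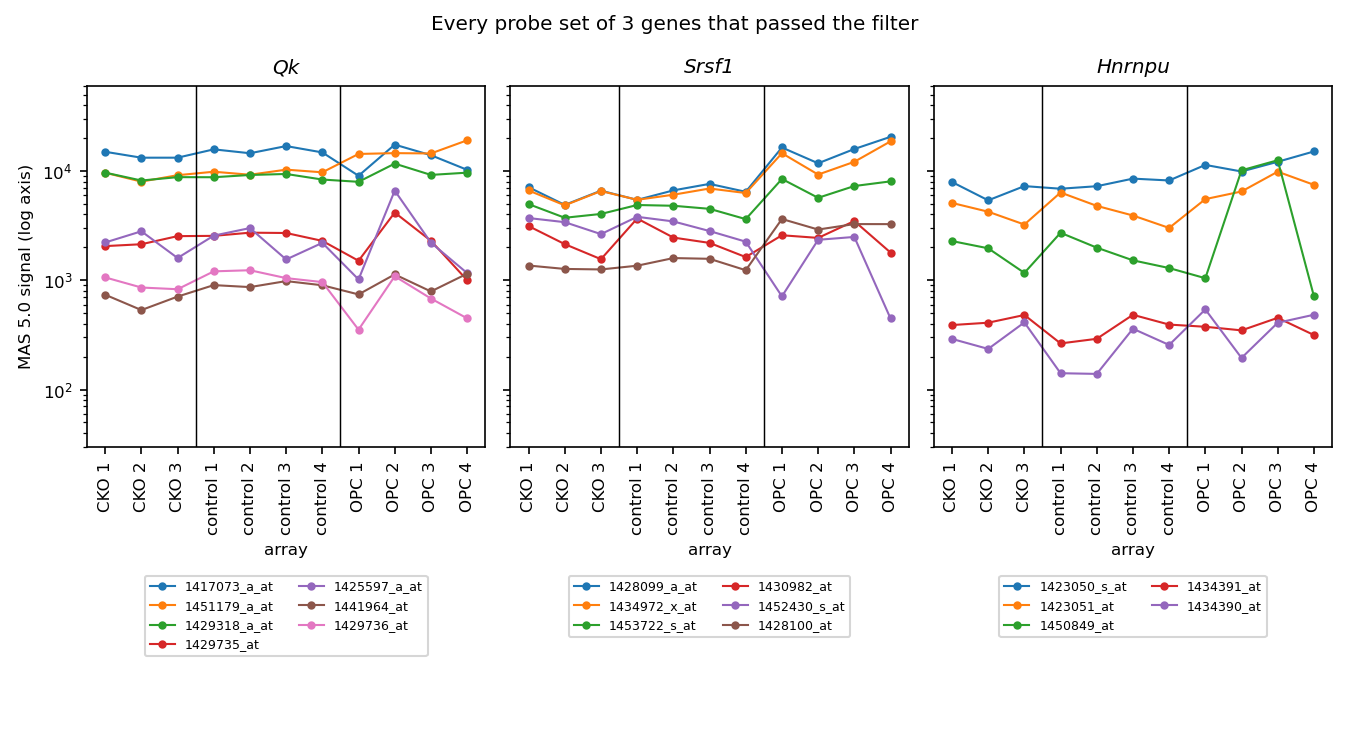
MAS 5.0 signal (log vertical axis) of every passing probe set of Qk, Srsf1 and Hnrnpu on the 11 arrays; each line is a probe set, and lines join arrays only to guide the eye. Probe sets of a gene part on the OPC arrays: on OPC 1 and 4 one of Hnrnpu is at 1044 and 715 and one of Srsf1 at 712 and 447.

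Other splicing genes were counted from lists drawn up by function. Of 35 measured genes of the core spliceosome outside the families above, none differed between CKO and control in limma, with 3 lower at an unadjusted p under 0.05. Against OPCs 23 were lower in CKO and 22 in control oligodendrocytes, and none was higher. Of all genes 26.8% were lower and 23.8% higher in CKO, and 29.6% and 24.4% in control oligodendrocytes. Phf5a, an SF3B partner, averaged 1743 ± 226 in CKO, 2129.8 ± 340.4 in control and 5577 ± 2119.9 in OPC cultures, and was lower than in OPCs by -1.59 (adjusted p 0.000762) in CKO and -1.31 (adjusted p 0.00151) in control oligodendrocytes. Lsm8, of the ring bound to U6 RNA, fell the most in control oligodendrocytes, by -1.47 (adjusted p 0.000581).

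Of 33 other splicing regulators, none differed between CKO and control, with 1 higher at an unadjusted p under 0.05. In CKO oligodendrocytes 15 were lower than in OPCs and 1 higher, Pcbp3, and in control oligodendrocytes 20 were lower and none higher. The shares of all genes are those given for the core spliceosome list. Rbmx, an X-linked relative of the hnRNPs, averaged 1051 ± 86.8 in CKO, 1260.2 ± 77.9 in control and 4040.05 ± 684 in OPC cultures. It was lower than in OPCs by -1.92 in CKO (adjusted p 4.84e-06) and -1.66 in control oligodendrocytes (adjusted p 7.34e-06). Nova1, the neuronal splicing regulator, was lower by -1.57 (adjusted p 0.000133) and -1.60 (adjusted p 6.53e-05). Of the 9 kinases that phosphorylate SR proteins or act on the spliceosome, Prpf4b and Srpk1 were lower than in OPCs in both oligodendrocyte cultures, Clk2 was lower in control oligodendrocytes, and Dyrk1a was higher in both, by 1.02 (adjusted p 0.00938) in CKO and 0.83 (adjusted p 0.0168) in control oligodendrocytes. That makes 2 lower and 1 higher of 9 in CKO and 3 and 1 in control oligodendrocytes, beside the same shares of all genes.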

How the data were processed

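The deposited table holds 1 MAS 5.0 signal intensity per probe set and array on a linear scale, which the authors computed with GCOS 1.3 and scaled to a target of 500, per the labels and the submitters' processing notes. Total RNA of 1 µg was labelled, per the labels' protocols. Arrays have no counts or depth, and their number limits the precision. A mean trimmed by 2% at either end came to 500 on each of the 11 arrays.

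Probe sets were named from the platform annotation: 34958 carried 1 gene, 932 several and 9211 none. Signals were used as deposited, as log2 of signal plus 16. A probe set was kept at 200 or more on at least 3 arrays, and the one with the highest mean stood for its gene. Group means over the 11 arrays were estimated in 1 model with limma 3.58.1 (moderated variance following intensity) under R 4.3.3, two-sided, with Benjamini-Hochberg adjustment over all genes tested; the fit was tested on simulated data. If the dimmer group stayed under 100 throughout, its fold is a bound set against 100. Promoters came from RefSeq (GRCm38.p6), with the outermost start where a gene had several.

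The members, lists, tests and alternatives were chosen with earlier results of these data known. Given by array were Qk, every member called between CKO and control without overlap, and up to 6 largest rises and falls against OPCs called without overlap, with Srsf1 and Hnrnpu added after their values were seen; CELF, ELAV-like, muscleblind and STAR genes were given by mean and SD, and up to 3 genes of each other list.

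The titles share replicate numbers. Deviations from the group means correlated between same-numbered CKO and control arrays at 0.214 to 0.242. Differently numbered ones ranged from -0.343 to 0.328, so these values do not settle whether the numbers pair the arrays. Against OPCs same-numbered arrays ranged from -0.117 to 0.193. The main fit used no pairing, and the replicate block was run as an alternative. Alternatives were a pseudocount of 64, no filter, a filter of 400 on 4 arrays, quantile normalization, the mean of probe sets, only the compared groups, the replicate block, array weights, each array left out, OPC 1 and 4 left out and, chosen after seeing the data, the probe set brightest in oligodendrocytes.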

Additional observations from a re-analysis of the deposited data

Results flagged for a closer look

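Within groups of 4 arrays, an array was picked out when its gap to the nearest other array was a larger share of the group's range than Dixon's critical value for 4 samples, which chance passes in about 1 of 20 groups. Of 116 groups tested over the 58 genes, 5 were picked out, on OPC 4 once and on control 3 and control 4 2 times each. Khdrbs3 was lowest on OPC 4, at 1327 where the other OPC arrays gave 1739.8 to 1837, a gap of 0.8327 of the range. Elavl2 was highest on control 3, at 385 where the others gave 208 to 229, a gap of 0.8431. Hnrnpm was lowest on control 3, at 1487 where the others gave 1857 to 1897, a gap of 0.9126. On control 4 Hnrnph3 was highest, at 1529, a gap of 0.8851, and Sf3b1 was lowest, at 3160.1, a gap of 0.8916.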

How the results depend on the processing

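The 4 calls between CKO and control held under all 21 alternatives. Of the 40 calls in CKO against OPC, 24 held under all of them, and of the 44 in control against OPC, 29 did. The count of genes higher in CKO than in control oligodendrocytes, 2, was 4 with array weights. The count higher in CKO than in OPC, 1, was 3 with quantile normalization, 2 with the mean of probe sets, 3 with array weights and 0 with the replicate block. With the block, 3 genes were higher and 3 lower in CKO than in control, 34 were lower in CKO than in OPC, and 2 were higher and 39 lower in control than in OPC. The share of all genes called moved with the setting too. In CKO against control, 3.64% were higher and 3.88% lower in the main fit, and 6.62% and 6.52% without OPC 2. A changed count is therefore not by itself a change particular to these genes. Leaving out 1 array at a time gave 2 to 3 higher and 2 to 3 lower in CKO than in control, 0 to 2 higher (0 without CKO 1, 2 without CKO 2 and without OPC 3) and 36 to 42 lower in CKO than in OPC, and 2 to 3 higher and 38 to 44 lower in control than in OPC. The mean of probe sets left 34 lower in CKO and 37 in control against OPC, sharing 29 and 33 genes with the counts reported. Directions turned, with the cause not tested, for these differences. With the mean of probe sets, CKO minus control was 0.21 for Celf1, control minus OPC was 0.059 for Hnrnpc, 0.18 for Srsf10 and 0.15 for Srsf2, and CKO minus OPC was 0.083 for Elavl1, -0.051 for Qk, 0.11 for Srsf10 and 0.063 for Srsf2. With the probe set brightest in oligodendrocytes, Elavl1 was -0.047 for CKO minus control, 0.16 for control minus OPC and 0.11 for CKO minus OPC, and Snrpb2 was 0.55 for CKO minus OPC. Without OPC 1 and 4, Celf2 was 0.52 for CKO minus OPC and 0.019 for control minus OPC, and Qk was -0.18 and -0.011. Celf1 was 0.040 for CKO minus control with quantile normalization. Leaving out 1 array moved Celf4 for CKO minus control from -0.35 to 0.0032 (without CKO 2), and Elavl3 for CKO minus OPC from -0.067 (without OPC 3) to 0.29 (without OPC 2). Quantile normalization moved the median of all genes to -0.11 in both comparisons with OPC. Signals under about 100 carry little information, which limits Elavl2 in CKO cultures, Celf4 and the RBFOX genes, and with 3 CKO arrays small differences in the general machinery may not be detectable.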

Other observations

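RNA-binding proteins that act mostly on translation, transport or stability followed no single course. Of 22 measured genes in such a list, none differed between CKO and control in limma, with 1 higher and 2 lower at an unadjusted p under 0.05. Against OPCs 4 were higher and 8 lower in CKO oligodendrocytes, and 6 were higher and 10 lower in control oligodendrocytes, beside the shares of all genes given in the report. Igf2bp3, an mRNA-binding protein best known from embryos and tumours, averaged 119.8 ± 14.7 in CKO, 187 ± 60.7 in control and 1365 ± 257 in OPC cultures. It reached 200 on 4 OPC arrays, 1 control array and no CKO array, so it had to be higher in OPCs to be measured. The fitted differences from OPCs were -3.33 in CKO and -2.79 in control oligodendrocytes. Cpeb1, which governs polyadenylation in the cytoplasm, went the other way. It averaged 191 ± 68.5 in CKO and 323 ± 104 in control cultures, while all OPC arrays were under 100, so that, set against a floor of 100, Cpeb1 was at least 1.71-fold higher in CKO and at least 2.79-fold higher in control oligodendrocytes than in OPCs. It reached 200 on 3 control arrays, 1 CKO array and no OPC array, so it had to be higher in oligodendrocytes to be measured. Msi1, a musashi protein of neural progenitors, averaged 1482 ± 882 in CKO, 802 ± 215 in control and 394 ± 105 in OPC cultures. It was higher than in OPCs by 1.74 in CKO (adjusted p 0.00214) and 0.99 in control oligodendrocytes (adjusted p 0.0273). Ybx1 and G3bp1, proteins of stress granules, were both lower in CKO oligodendrocytes than in OPCs, by -1.40 (adjusted p 4.75e-05) and -1.36 (adjusted p 0.000219).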
